A study of Homo sapiens with 6 samples.

Results

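The 9 genes described here, TRIM5, TRIM14, TRIM21, TRIM22, TRIM25, TRIM26, TRIM34, TRIM38 and TRIM56, belong to the tripartite-motif (TRIM) family and are known for roles in antiviral defence. They were taken by symbol from the 60617 genes of the deposited count table, where each symbol matched 1 Ensembl identifier. The study reduced FuHsi in NCI-H1299, a human lung cancer line without p53 protein, and asked through RNA sequencing what FuHsi does in the nucleolus. The control group was 3 wild-type libraries with Puro in their titles, and the knockdown group was 3 FuHsi knockdown libraries with Sh1 in their titles. Puro and Sh1 are not explained in the labels, no gene symbol is given for FuHsi, and the level of the target was not analysed here. All libraries came from 1 line grown in the same medium, and only 1 knockdown label is present. Whether replicates were separate cultures is not stated, so each p-value below measures the spread between these libraries, which may be technical.

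Most TRIM proteins are ubiquitin ligases. A RING domain at the start of the protein binds a ubiquitin-charged E2 enzyme, B-box and coiled-coil domains drive assembly into dimers and larger lattices, and a domain at the end of the protein, often PRY-SPRY, binds the target. Interferon raises the transcripts of many family members in many cell types, and their products either bind viral components or adjust the sensors and kinases that start the interferon response. TRIM14 lacks the RING domain, so the name ubiquitin ligase does not describe it.

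Library totals ran from 24231515 to 34306849 counts, and every control library was deeper than every knockdown library. Levels are given as CPM, the count relative to library depth after TMM scaling. Of 9 genes listed beforehand for a lung epithelial line, only KRT8, KRT18 and VIM were abundant. KRT8 and VIM were lower in knockdown, by -0.63 and -0.70 on the log2 scale, and KRT18 was not called at -0.06. KRT19, EPCAM, CDH1, NKX2-1, SFTPB and NAPSA were under 1 CPM in every library, so the rest of that list was near 0. NAPSA was called higher within that range (group means of 0.0665 in control and 0.632 CPM in knockdown, 3.22 on the log2 scale), as was the fibroblast marker DCN (0.188 and 0.595 CPM, 1.61). Of the other fibroblast markers, COL1A1 went the other way without a call (1.54 and 1.35 CPM, -0.17), and COL3A1 was too low to test. Of the endothelial markers, PECAM1 was not called (0.309 and 0.373 CPM) and CDH5 was too low to test. The 5 immune markers PTPRC, CD3E, CD14, CD79A and LYZ summed to 0.770 to 1.93 CPM in control libraries and 1.32 to 1.76 CPM in knockdown libraries. CD3E was at 0 in all control libraries and LYZ in all knockdown libraries. PTPRC was called higher (0.273 and 0.748 CPM) and CD79A lower (0.646 and 0.268 CPM), at levels far below those of most TRIM members. In bulk RNA, more cells expressing a gene and more RNA per cell cannot be told apart.

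The antiviral TRIM genes were higher in knockdown. Of the 9, 8 passed the filter on low counts and all 8 of these were called higher with edgeR (quasi-likelihood, adjusted p under 0.05), whereas 30.7% of 17223 tested genes were called higher. None was called lower, where 30.9% of tested genes were. That count was also 0 at an unadjusted p under 0.05, since all 8 were higher, and 0 with DESeq2 and limma-voom. Of all called genes 49.9% were higher, and 64.4% were when libraries were scaled by size alone. Rises of at least 2-fold numbered 7 of 8, against 9.16% of tested genes. In all 8, every knockdown value lay above every control value, which held for 33.0% of tested genes. The median log2 fold change of the 8 was 1.39, and that of all tested genes was 0.03. TRIM34 was too low to test. TRIM22 held 0, 4 and 0 counts in control and 42, 30 and 58 in knockdown, so it passed the filter through knockdown alone. It could not have been called lower, and the counts and the median above include it.

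**Figure D1:**
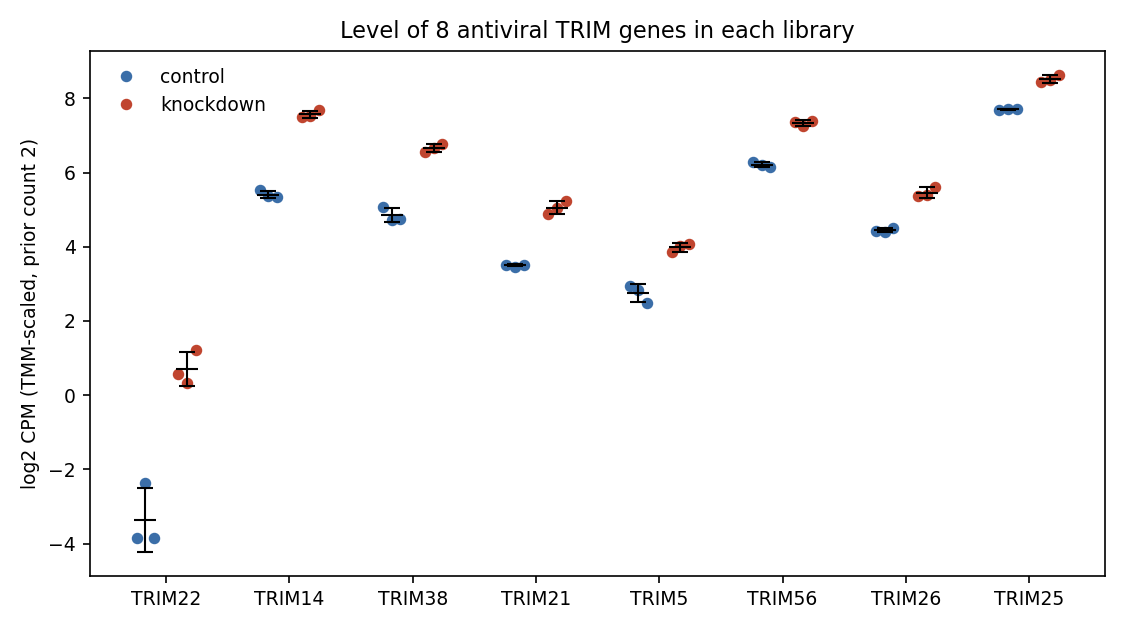
Level of each tested TRIM gene in each of the 6 libraries, as log2 CPM with a prior count of 2; blue points are control, red points are knockdown, and black bars are mean ± SD of 3 libraries. Red points lie above blue points for all 8 genes, and the 2 lowest TRIM22 control points are libraries with 0 counts.

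The first group by role acts on viral particles or viral transcripts: TRIM5, TRIM22, TRIM34 and TRIM21, all encoded on the short arm of chromosome 11. TRIM5 binds the capsid lattice of incoming retroviruses and is a restriction factor for them. It is annotated at chr11:5663557-5938619 on the minus strand (GRCh38). Its control libraries were at 7.68, 7.03 and 5.54 CPM, and its knockdown libraries at 14.4, 16.1 and 16.9 CPM. The groups did not overlap, and the lowest knockdown library was 1.10 log2 units above the control mean. The log2 fold change was 1.22 ± 0.12 (SE; adjusted p = 4.01e-14, edgeR).

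TRIM21 is a cytosolic receptor for the constant region of antibodies, and it targets antibody-coated particles for degradation by the proteasome. It lies at chr11:4384897-4393696, minus strand, and shares no exonic base with another annotated gene. Control libraries were at 11.4, 10.97 and 11.4 CPM, a narrow range, and knockdown libraries were at 29.7, 32.8 and 37.5 CPM. Knockdown values were all higher but more spread, with knockdown replicate 3 at the top. The log2 fold change was 1.57 ± 0.09 (SE; adjusted p = 1.05e-23, edgeR).

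TRIM22, an interferon-induced nuclear and cytoplasmic ligase known to restrain retroviral transcription, was nearly silent in control. It lies at chr11:5689689-5737089, plus strand, within the span annotated for TRIM5 on the opposite strand. Control libraries held 0, 4 and 0 counts and knockdown libraries held 42, 30 and 58. On the CPM scale the knockdown values were 1.42, 1.18 and 2.27, and the single control library with counts was at 0.123. The gene was thus detected in every knockdown library at a level far below that of the other called members. The ratio of summed counts per effective depth was 37.97, with a 95% exact conditional interval of 14.5 to 141 that covers counting error only. The fitted log2 fold change was 5.12 ± 0.61 (SE; adjusted p = 1.24e-10, edgeR). Control replicate 2 supplied all of the control counts, and without it the fitted value was 8.53, which depends on the prior count. The lowest value with any 1 library left out was 4.55.

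TRIM34, a close relative of TRIM5 that also acts on retroviral capsids, lies at chr11:5619764-5644398, plus strand. Its row held 0, 1 and 0 counts in control and 1, 0 and 3 in knockdown, at or under 3 counts in every library, so no fold is given. A total of 2233 of its 2690 exonic bases (83.0%) are shared with the readthrough gene TRIM6-TRIM34, whose own row was 0 in all 6 libraries. How reads shared by overlapping genes were counted is not given in the sources used here, so these counts do not measure the transcript as a whole. Only 457 exonic bases belong to TRIM34 alone.

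The second group by role is the members that act on RNA and DNA sensing. TRIM25 attaches ubiquitin chains in the pathway of the RNA sensor RIG-I and is a cofactor of the antiviral RNA-binding protein ZAP. It lies at chr17:56836387-56914080, minus strand. Control libraries were at 206.5, 211 and 210.5 CPM, and knockdown libraries at 346, 362 and 399 CPM. This was the smallest log2 fold change of the 8 and the highest level, at 0.82 ± 0.04 (SE; adjusted p = 4.42e-24, edgeR). Other annotated genes overlap 8.80% of its exonic bases.

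TRIM14 is an adaptor at mitochondria for MAVS, the protein that relays RIG-I signals, and it is known to recruit the deubiquitinase USP14 to the DNA sensor cGAS. It lies at chr9:98069275-98119212, minus strand. Control libraries were at 46.0, 41.1 and 40.2 CPM, and knockdown libraries at 180.05, 186 and 205 CPM. Every knockdown library was at least 2.08 log2 units above the control mean. The log2 fold change was 2.16 ± 0.05 (SE; adjusted p = 7.07e-33, edgeR), and 1.69% of tested genes had a larger one.

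TRIM56 is a ligase of the DNA-sensing route through cGAS and STING. It lies at chr7:101085439-101097967, plus strand, with no shared exonic base. Control libraries were at 77.2, 73.9 and 70.9 CPM, and knockdown libraries at 166, 153 and 168 CPM. The groups stood apart by more than their spread, with a log2 fold change of 1.13 ± 0.04 (SE; adjusted p = 4.86e-31, edgeR).

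The third group is members known at least in part as brakes on signalling. TRIM38 limits signalling from Toll-like and cytokine receptors through TAB2, TAB3 and TRIF, and also modifies nucleic-acid sensors. It lies at chr6:25962802-25991226, plus strand. Control libraries were at 33.6, 26.3 and 26.9 CPM, and knockdown libraries at 94.4, 101 and 109 CPM. Control replicate 1 was the highest control and lay far below every knockdown value. The log2 fold change was 1.81 ± 0.08 (SE; adjusted p = 3.16e-13, edgeR).

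TRIM26, which is known to promote loss of the transcription factor IRF3 from the nucleus, lies in the major histocompatibility region at chr6:30184455-30213427, minus strand. Control libraries were at 21.5, 20.9 and 22.5 CPM, and knockdown libraries at 40.8, 41.8 and 49.1 CPM. Knockdown replicate 3 was again the highest. The log2 fold change was 1.02 ± 0.07 (SE; adjusted p = 2.79e-19, edgeR), close to the 2-fold mark. The TRIM26 log2 fold change was 0.93 without knockdown replicate 3, 0.99 without control replicate 2 and 0.997 by DESeq2, so that 6 of 8 members then reached 2-fold.

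**Figure D2:**
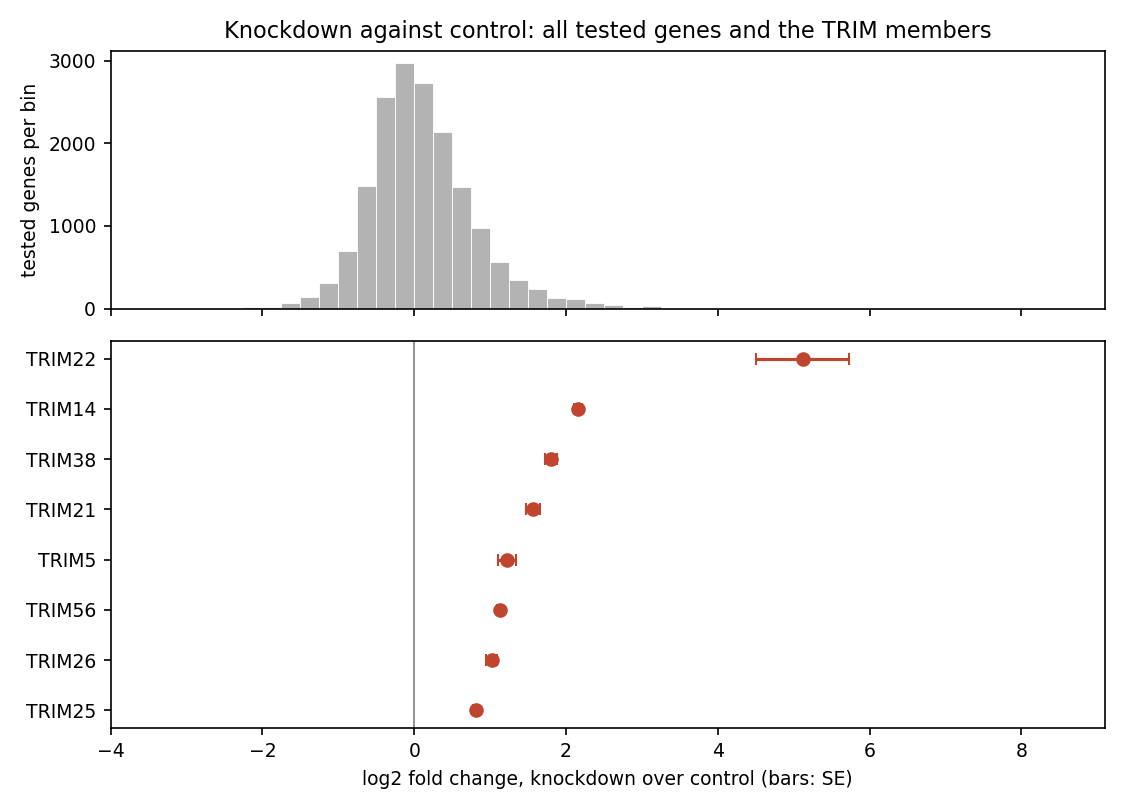
Upper panel: number of tested genes in bins of 0.25 log2 units of fold change, knockdown over control. Lower panel: log2 fold change of each tested TRIM gene with its SE on the same axis; values run from 0.82 for TRIM25 to 5.12 for TRIM22, right of the bulk of tested genes.

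Members rose by unequal amounts. By log2 fold change the order was TRIM22, TRIM14, TRIM38, TRIM21, TRIM5, TRIM56, TRIM26 and TRIM25. The log2 differences of single knockdown libraries from the control mean did not overlap between TRIM22 and TRIM14, between TRIM14 and TRIM38, or between TRIM21 and TRIM5. They overlapped between TRIM38 and TRIM21, and between each next pair from TRIM5 down to TRIM25. These ranges leave out the spread of the control libraries, so they do not settle the order. The control SD was largest for TRIM22, TRIM5 and TRIM38, at 0.86, 0.24 and 0.20 log2 units. Among the 3 knockdown libraries the members shared their highest library. Knockdown replicate 3 had the highest value for all 8, with a median deviation of 0.11 log2 units from the group mean. Knockdown replicate 1 had the lowest value for 6 and knockdown replicate 2 for 2, and the share of all genes lowest in each was not counted. Of the 5295 genes called higher, 43.8% were highest in knockdown replicate 3. Without that library all 8 members were still called higher.

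Levels were compared between members per kilobase of annotated exon, because longer transcripts collect more reads. The length was that of all annotated exons of a gene merged, from 1929 bases for TRIM21 to 11173 for TRIM56. The transcript expressed may be shorter, so the order of members and their shares depend on this choice. In control the order was TRIM25 at 22.03 ± 0.252 CPM per kilobase (mean ± SD, n = 3), TRIM14 at 7.76 ± 0.571, TRIM56 at 6.62 ± 0.284, TRIM21 at 5.83 ± 0.123, TRIM26 at 4.94 ± 0.186, TRIM38 at 3.08 ± 0.432 and TRIM5 at 1.40 ± 0.228. No neighbours in this order overlapped. TRIM22 and TRIM34 followed at 0.00683 and 0.00382 CPM per kilobase and did overlap. In knockdown TRIM25 was at 38.8 ± 2.87 and TRIM14 at 34.8 ± 2.45 CPM per kilobase, and their libraries overlapped. TRIM21 stood at 17.3 ± 2.04, above TRIM56 at 14.5 ± 0.755 and TRIM38 at 10.8 ± 0.778. TRIM38 overlapped with TRIM26 at 10.03 ± 1.03, and TRIM5 at 3.29 ± 0.260 and TRIM22 at 0.270 ± 0.0950 were lowest of those tested.

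The make-up of the group differed between conditions on this per-kilobase scale. TRIM25 supplied 42.6% ± 1.44 of the summed level in control and 29.9% ± 0.174 in knockdown, as means with the SD of 3 libraries. TRIM14 supplied 15.01% ± 0.753 in control and 26.8% ± 0.134 in knockdown. TRIM38 went from 5.94% ± 0.692 to 8.31% ± 0.1699, and TRIM26 from 9.56% ± 0.464 to 7.72% ± 0.218. These shares sum to a fixed total, so a larger share of TRIM14 lowers that of others even where their transcripts rose.

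**Figure D3:**
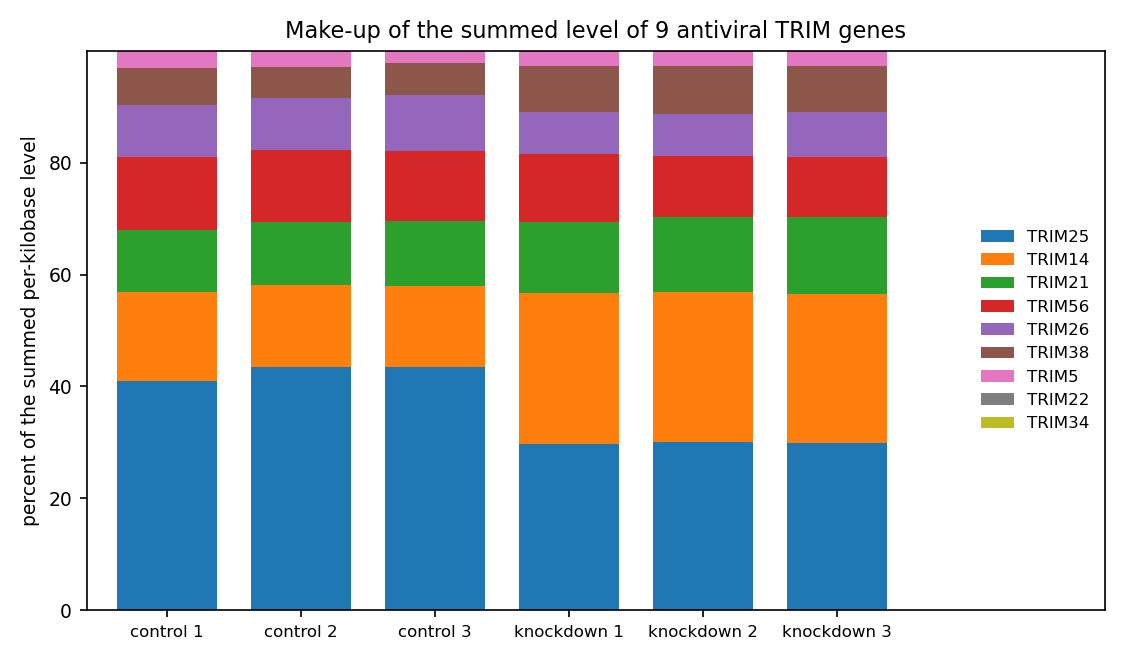
Percent of the summed CPM per kilobase of the 9 genes supplied by each, in each of the 6 libraries; TRIM22 and TRIM34 are too small to see. The TRIM14 segment is wider in all 3 knockdown libraries (26.8% on average against 15.01%) and the TRIM25 segment narrower (29.9% against 42.6%).

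Promoter sequences from RefSeq (GRCh38.p14, 250 bases before to 50 after each gene start) were listed for 8 of the 9 members, with a pair of starts for TRIM34, and TRIM22 had no entry. They were searched on both strands for GAAANNGAA, the core of the element that interferon-activated factors bind, whose reverse complement is TTCNNTTTC, and for TTCNNNGAA, the palindromic site of STAT dimers. The first motif was in the promoters of 5 members, TRIM5, TRIM14, TRIM21, TRIM26 and TRIM34, and in 8.11% of all 35116 listed promoters. Counted by promoter it was in 5 of 9, because the other TRIM34 start held no match. The second motif was in 0 of the 9 member promoters and in 7.66% of all. Sequences around the matches are shown, with TRIM38, a strong riser with no match, for comparison. Capitals mark matches to the first motif, each line reads 5′ to 3′ on the strand of its gene, and overlapping matches form 1 block in TRIM26 and TRIM21.
TRIM14 (chr9:98119223-98119322, minus): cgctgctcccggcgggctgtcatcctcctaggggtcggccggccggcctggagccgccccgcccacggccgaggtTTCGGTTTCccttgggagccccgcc
TRIM5 (chr11:5685075-5685174, minus): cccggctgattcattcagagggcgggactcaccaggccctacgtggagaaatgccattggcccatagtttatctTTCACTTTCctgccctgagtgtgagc
TRIM21 (chr11:4393665-4393694, minus): ttctgagcgGAAACTGAAAGTGAAataggg
TRIM26 (chr6:30213557-30213656, minus): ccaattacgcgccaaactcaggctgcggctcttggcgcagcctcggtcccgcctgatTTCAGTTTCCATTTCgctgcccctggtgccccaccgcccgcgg
TRIM34 (chr11:5624851-5624950, plus): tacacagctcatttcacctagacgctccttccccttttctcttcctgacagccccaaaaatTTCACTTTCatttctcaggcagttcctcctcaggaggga
TRIM38 (chr6:25962702-25962801, plus): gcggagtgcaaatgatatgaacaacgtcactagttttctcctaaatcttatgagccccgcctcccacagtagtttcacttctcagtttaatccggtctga

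In TRIM14 and TRIM5 the match begins 25 and 26 bases before the gene start, in TRIM34 89 bases before it, and in TRIM26 the pair of matches begins 193 and 187 bases before it. These are RefSeq starts, which can differ from the ends of the annotated spans given above. The TRIM5 window is chr11:5685025-5685324, whereas its annotated span on the minus strand runs to 5938619. For TRIM34 the window with the match is chr11:5624751-5625050, and its annotated span begins at 5619764. In TRIM21 the matches begin 17 and 23 bases after the start, inside the first exon. The members with a match that could be tested had log2 fold changes of 2.16 (TRIM14), 1.57 (TRIM21), 1.22 (TRIM5) and 1.02 (TRIM26). Those without one in this window had 1.81 (TRIM38), 1.13 (TRIM56) and 0.82 (TRIM25), so the ranges overlap. A match is a description of letters and no binding was measured.

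The rest of the TRIM family was called in shares near those of all tested genes. Of 62 other family genes, counted by name and with MID1, MID2, PML and MEFV added, 38 were tested, and 12 were called higher (31.6%) and 11 lower (28.9%) with edgeR, against 30.7% and 30.9% of all tested genes. Their median log2 fold change was 0.08, near that of all tested genes. Of the 24 not tested, 12 had no count in any library and the others reached at most 10 counts. Under scaling by library size alone, 17 were higher and 7 lower.

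TRIM69, which is known to restrict vesicular stomatitis virus, went from 3.85 ± 0.324 to 11.07 ± 1.32 CPM (means with SD of 3 libraries), which is 1.52 log2 units higher. TRIM58, a ligase of late red-cell development, went from 121 ± 2.05 to 267 ± 2.24 CPM, a change of 1.14. TRIM69, TRIM58 and TRIM46 (1.03) were the 3 other family genes whose rise exceeded that of TRIM25, and TRIM46 is named after its value was seen. Of the 11 that fell, TRIM28 and TRIM44 changed most. TRIM28, the corepressor that KRAB zinc-finger proteins recruit, went from 589.9 ± 21.03 to 365 ± 6.41 CPM, a change of -0.69. TRIM44 went from 311 ± 5.07 to 186 ± 5.48 CPM, a change of -0.74. Of 15 other family genes at 30 CPM or more in control, 6 were called lower and 4 higher. Over all tested genes, of any level, 30.9% were called lower and 30.7% higher. The shares among all genes at 30 CPM or more were not counted.

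The antiviral members therefore made up more of the family's reads in knockdown. Their summed level was 404, 391 and 388 CPM in control libraries and 872, 894 and 988 CPM in knockdown libraries, 2.33 times the control mean. The summed level of the other family genes went from 2114 ± 13.0 to 1940 ± 21.5 CPM (mean ± SD, n = 3). The members' share of the family total was 15.7% ± 0.340 in control and 32.1% ± 1.34 in knockdown, with no overlap between groups.

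**Figure D4:**
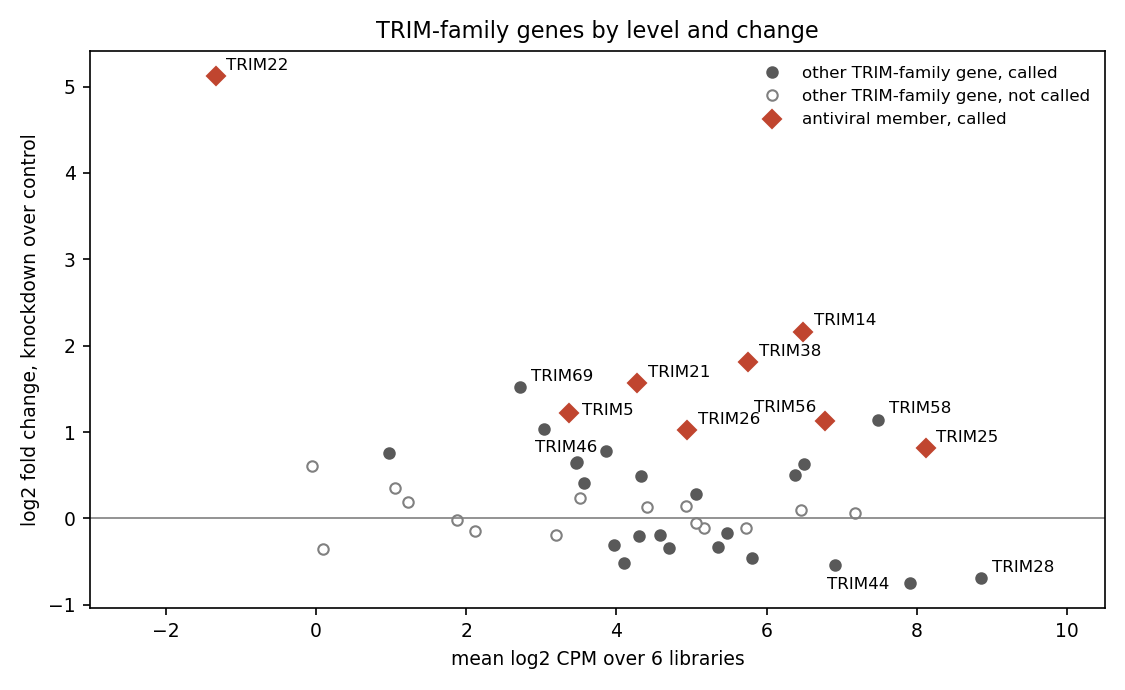
Each point is a tested TRIM-family gene, placed by its mean log2 CPM over 6 libraries and its log2 fold change, knockdown over control; red diamonds are the antiviral members, filled grey points other family genes that passed the test, and open points those that did not. All 8 diamonds lie above 0.8, while other family genes lie on either side of 0 and the most abundant, TRIM28 and TRIM44, lie below it.

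Neighbouring TRIM genes on the same chromosomes did not all follow. TRIM6, which lies beside TRIM34 and TRIM5 on chromosome 11, had control libraries at 8.38 to 11.01 CPM and knockdown libraries at 7.75 to 9.86 CPM. The groups overlapped, and its difference of -0.20 ± 0.12 (SE) missed the threshold (adjusted p = 0.171, edgeR). The TRIM6 log2 fold change was -0.32 without knockdown replicate 2, where it was called lower, -0.30 without control replicate 2 and -0.10 without control replicate 1. TRIM6-TRIM34 covers 29.3% of the exonic bases of TRIM6. TRIM68, near TRIM21, was at 0.23 and was not called (adjusted p = 0.0537, edgeR). The TRIM68 log2 fold change was called higher in 3 of 14 alternatives, at 0.28 without control replicate 2, 0.29 with upper-quartile and 0.39 with library-size scaling. TRIM3 rose by 0.64. TRIM66 fell by 0.19, and lost its call without control replicate 1 or 2 or knockdown replicate 2 (-0.17, -0.18 and -0.17) and under upper-quartile or library-size scaling (-0.13 and -0.04). On chromosome 6, TRIM27 was at 0.09 and was not called (adjusted p = 0.0649, edgeR). The TRIM27 log2 fold change was called higher in 4 of 14 alternatives, at 0.12 without knockdown replicate 1, 0.11 with thinned counts, 0.15 with upper-quartile and 0.25 with library-size scaling. TRIM10, TRIM15, TRIM31 and TRIM40 were at 0 in all 6 libraries, and TRIM39 held 4 to 7 counts, which was too few to test. TRIM39 shares 41.7% of its exonic bases with other annotations, so its counts may not measure the whole transcript. With these totals, 0 counts in a library allow a level of up to 0.0918 to 0.118 CPM.

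Sensors and relay proteins on which members of the TRIM family are known to act were examined as a list of 27 genes, all tested. Of these, 19 were called higher (70.4%) and 6 lower (22.2%), against 30.7% and 30.9% of all tested genes. The median log2 fold change was 0.24, and rises of at least 2-fold numbered 7 of 27, against 9.16% of tested genes. RIGI, the RNA sensor linked to TRIM25, was at 24.4, 25.8 and 22.7 CPM in control and at 271, 299 and 398 CPM in knockdown, a log2 fold change of 3.73 ± 0.20 (SE; adjusted p = 7.77e-05, edgeR). IFIH1 (MDA5), a sensor of long double-stranded RNA, went from 39.6 ± 2.18 to 424 ± 75.4 CPM (means with SD of 3 libraries), 3.42 log2 units higher. Both were highest in knockdown replicate 3, as the TRIM members were. MAVS, which relays their signal and binds TRIM14, rose by 0.14 on the log2 scale. STING1, a target of TRIM56, rose by 1.43, whereas CGAS was called lower at -0.11. The CGAS call was lost in 7 of 14 alternatives, among them those without control replicate 2 (-0.09), control replicate 3 (-0.12) or knockdown replicate 1 (-0.08), and with library size alone the sign changed (0.05). IRF3, linked to TRIM26, rose by 0.36, and TAB2, a target of TRIM38, rose by 0.61 while TAB3 was not called at -0.04. TICAM1, which encodes TRIF, rose by 0.19, and its call was lost in 1 of 14 alternatives. IKBKG (NEMO), the regulatory subunit of the NF-kB kinase, fell by 0.85 and TBKBP1 by 0.34. IKBKG has a near-identical partial copy nearby, so its counts are uncertain. MAVS, STING1, CGAS, IRF3, TAB2, TAB3 and TICAM1 are named for their ties to the members, and this choice was made after their values were seen.

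The ubiquitin machinery held calls in each direction, as all tested genes did. Of 32 listed E2 enzymes, ubiquitin genes, partner ligases and deubiquitinases, 31 were tested, and 12 were called higher (38.7%) and 13 lower (41.9%), against 30.7% and 30.9% of all tested genes, with a median log2 fold change of 0.06. USP18, which removes the ubiquitin-like protein ISG15, went from 11.3 ± 0.760 to 99.0 ± 21.7 CPM (means with SD of 3 libraries), a change of 3.13. RNF135 (Riplet), a ligase that modifies RIG-I beside TRIM25, went from 6.93 ± 0.807 to 26.6 ± 1.98 CPM, a change of 1.94. The largest fall was that of USP14, the deubiquitinase that TRIM14 is known to recruit. It was at 305, 299.6 and 314 CPM in control and at 109, 110.6 and 112 CPM in knockdown, 2.77-fold lower (adjusted p = 1.39e-40, edgeR). TRIM14 and USP14 thus moved in opposite directions, with no overlap of groups in either. Groups did not overlap, in one direction or the other, in 11252 of 17223 tested genes. A relation between TRIM14 and USP14 was not tested. UBE2W, an E2 enzyme that attaches ubiquitin to protein starts and works with TRIM5 and TRIM21, fell by 0.71. UBE2N, the E2 that builds K63-linked chains with several TRIM ligases, fell by 0.67 and its cofactor UBE2V2 by 0.50. UBE2V1, the other listed cofactor, went the other way at 0.52 (adjusted p = 0.0444, edgeR). The UBE2V1 call was lost in 7 of 14 alternatives. UBE2N shares 39.5% of its exonic bases with other annotations, and UBE2V1 shares 42.9%. UBE2N, UBE2V2 and UBE2V1 are named after their values were seen. RNF31 was not tested, at 1 to 6 counts, and 39.1% of its exonic bases overlap other annotations.

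Of 20 listed genes between interferon receptors and their transcription factors, 18 were tested. Of these, 10 were called higher (55.6%) and 2 lower (11.1%), against 30.7% and 30.9% of all tested genes. The median log2 fold change was 0.30, and rises of at least 2-fold numbered 3 of 18, against 9.16% of tested genes. STAT2 went from 30.1 ± 3.25 to 144 ± 16.9 CPM (means with SD of 3 libraries), a change of 2.26. PTPN2, a phosphatase that limits STAT signalling, fell by 0.35. SOCS3, a feedback inhibitor, fell by 0.20 and lost its call without control replicate 3 (-0.16) and under upper-quartile or library-size scaling (-0.14 and -0.05). IRF9, the DNA-binding partner of STAT2, held only 2 to 14 counts and was not tested. It shares 48.4% of its exonic bases with another annotated gene.

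**Figure D5:**
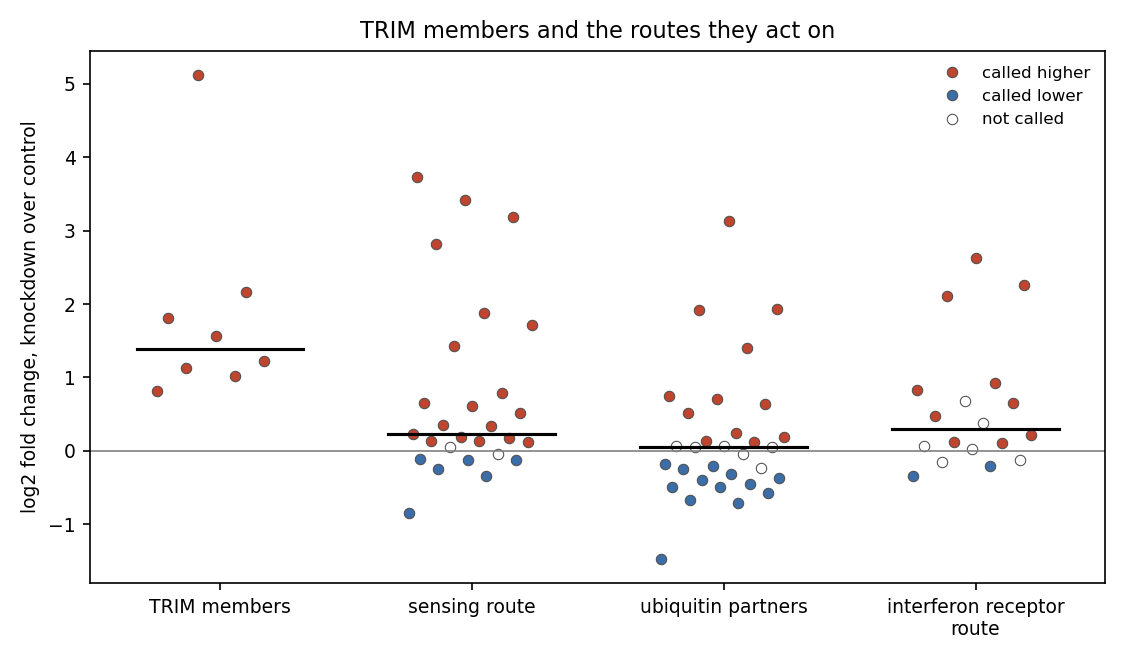
Log2 fold change, knockdown over control, of each tested gene in the TRIM members and the lists of sensing-route, ubiquitin-partner and interferon-receptor-route genes; red points were called higher, blue lower and white neither, black lines are list medians, and sideways spread has no meaning. Medians are 1.39, 0.24, 0.06 and 0.30, and genes called lower appear in each list but that of the TRIM members.

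For each tested member, the genes most alike across the 6 libraries were found by the root mean square difference of log2 CPM centred on the control mean, among 12368 other named genes with a mean log2 CPM of at least 1 (12369 for TRIM22, which was itself below that level). TRIM25 was closest to HLA-E (0.0113 log2 units) and TRAF1 (0.0260). TRIM26 was closest to SAMHD1 (0.0308) and PMS2CL (0.0378), and TRIM14 to FAM222B (0.0358) and BIRC3 (0.0441). TRIM21 was closest to TNFAIP3 (0.0413) and PARP12 (0.0446), TRIM56 to ZNF529 (0.0391) and SAMD12 (0.0497), and TRIM5 to MDGA1 (0.0594) and NPFFR2 (0.0816). TRIM38 was closest to SCN9A (0.0827) and LPXN (0.0855). For TRIM22 the nearest, ACTN2 and GRIN2B, were 0.446 and 0.505 log2 units away. Genes as low as TRIM22 were not candidates, and its control values rest on 0, 4 and 0 counts. This distance therefore does not show whether TRIM22 has a close match. With 6 libraries in 2 groups, the measure weighs chiefly the fold change.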

How the data were processed

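RNA of 3 control and 3 knockdown libraries was measured. The deposited table holds raw counts for each Ensembl identifier, as whole numbers. The submitters' processing notes name hg38, DESeq2 1.30.1, featureCounts 2.0.1, STAR 2.7.0d and Trim Galore 0.6.6, without roles or order. Strand setting, annotation release and handling of multiply aligned or shared reads are not stated there, so counts of overlapping and antisense genes are uncertain.

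Genes were filtered with filterByExpr (minimum count 10), scaled by TMM and tested with edgeR 4.0.16 (quasi-likelihood, robust, group only, R 4.3.3). Benjamini-Hochberg adjustment covered all 17223 tested genes, and the threshold was 0.05. Log2 CPM used a prior count of 2. The SE is the log2 fold change divided by the root of the F statistic. DESeq2 1.42.0 and limma 3.58.1 (voom) served as alternatives. The fit was tested on simulated data. Coordinates, exonic lengths and overlaps came from GENCODE v29 (GRCh38). Library totals of 24231515 to 34306849 counts limit precision only for genes of few counts, such as TRIM22.

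Members, gene lists and tests were chosen with earlier results of these data known. Named genes are all members, their listed chromosomal neighbours, up to 2 rises and 2 falls per list (mean log2 CPM 1 or higher), and the 2 genes most alike each member. Others are marked where named. A named gene that the rule gives in the interferon-receptor list is not reported here.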

Additional observations from a re-analysis of the deposited data

How the results depend on the processing

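All 8 tested members were called higher in each of 14 alternatives, and the largest adjusted p of any was 1.38e-06 (TRIM38). The alternative that thins each library to the depth of the shallowest was added after the data were seen. With any 1 library left out, the median of the members was 1.32 to 1.46, and calls over all genes numbered 4962 to 5017 rises and 5050 to 5198 falls. Library size alone raised the median log2 fold change of all genes by 0.15 and that of the members to 1.55, and gave 64.4% of called genes as higher against 49.9%. It left 7 other family genes, 2 sensing-route genes and 1 interferon-receptor-route gene lower, and turned the sign of CGAS, TRAF2 and TRAF3, to log2 fold changes of 0.0458, 0.0329 and 0.0257. Without a filter and with DESeq2 the median was taken over 34312 genes and was 0.14 and 0.13, against 0.03 over the 17223 otherwise tested, while the members' median was 1.38 and 1.37. Upper-quartile factors left 3 sensing-route genes and 1 interferon-receptor-route gene lower. Leaving out 1 library gave 1 to 3 interferon-receptor-route genes lower, with 1 without control replicate 3. With the replicate number as a block, all 8 members were called higher, with TRIM25 at 0.82 and TRIM22 at 5.09, 12 other family genes were higher, and CGAS lost its call, leaving 5 sensing-route genes lower. Deviations of same-numbered libraries correlated at -0.000751, -0.00642 and -0.0235, so the numbers give no sign of pairing. Counts limit TRIM22 and TRIM34, whose levels in control are at or near those of 3 counts. The cause of each shift beyond the scaling itself was not tested.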
